A study of Mus musculus with 16 samples.

Results

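The 10 genes described here are marker genes of inhibitory interneurons, namely Gad1, Gad2, Slc32a1, Sst, Pvalb, Vip, Npy, Reln, Lhx6 and Cnr1. They were taken by gene symbol, with no threshold on their levels but with earlier results of these data known, from the 17986 genes that the deposited expression tables share. All 10 were present, and 9 passed the filter on low values that left 11892 genes for testing. Reln did not pass it.

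CA1, the output field of the hippocampus, had been cut by laser dissection from 8 µm sections of frozen brain, and its RNA was sequenced as paired reads of 100 bp. The mice were males of 3 to 6 months on a C57Bl6 background, labelled wild type (WT-labelled) or Neil3-/- (KO-labelled). Neil3 encodes a DNA glycosylase of base excision repair. The mice called home cage were left undisturbed. Those of the spatial exploration groups spent 20 min per day for 1 week in an open field with sides of 50 cm, a cue card and food cues, and their brains were taken 20 min after the last of these sessions. The home cage groups had 2 mice each and the exploration groups 3 each, with 1 library per mouse, and 6 further samples, labelled learning condition, were not analysed here.

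Interneurons are a small share of the neurons in CA1, most of which are excitatory pyramidal cells, and they release GABA, which the enzymes encoded by Gad1 and Gad2 make from glutamate and which the vesicular transporter encoded by Slc32a1 loads into synaptic vesicles. They fall into types that contact different parts of the pyramidal cell: parvalbumin (Pvalb) cells reach the soma and the start of the axon, somatostatin (Sst) cells the dendrites, and many vasoactive intestinal peptide (Vip) cells other interneurons. Neuropeptide Y (Npy) is made by several of these types, reelin (Reln) by cells near the hippocampal fissure among others, Lhx6 is a transcription factor of the lineage that gives rise to Sst and Pvalb cells, and Cnr1 encodes the cannabinoid receptor CB1, which is dense on the terminals of cholecystokinin basket cells and also present on pyramidal cell terminals.

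The Sst and Npy promoters are shown because these are the peptide genes called between environments below. Sequences are from RefSeq (GRCm38.p6), with positions counted from an annotated start of transcription, which can lie inside the gene. For Sst it does: the 250 bases before that start, chr16:23890845-23891094, lie within the gene coordinates given below. The cAMP response element, TGACGTCA, was searched on both strands in the 250 bases before each start, and it was present in 1.55% of 32851 such windows in the genome. Among the 10 markers the full element was found in Sst alone, the gene in which it was classically studied, with its first base 48 bases before the start. The Sst stretch covers bases 59 to 30 before the start, at chr16:23890874-23890903 on the minus strand, with the element in capitals. The Npy window, chr6:49822460-49822709 on the plus strand, held no such element and had 1 GC box, GGGCGG, in capitals, 95 bases before the start. The GC box was searched on both strands and was present in 32.7% of all windows.
Sst: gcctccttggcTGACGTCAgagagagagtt
Npy: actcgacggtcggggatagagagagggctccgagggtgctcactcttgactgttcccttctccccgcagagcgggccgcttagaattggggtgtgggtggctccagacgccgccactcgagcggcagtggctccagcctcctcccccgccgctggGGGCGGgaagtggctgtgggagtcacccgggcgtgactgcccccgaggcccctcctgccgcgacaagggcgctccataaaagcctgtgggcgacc
The shorter form TGACG of the cAMP response element, searched on both strands, was present in 17.8% of windows. Among the markers it was found in Sst, in Vip 79 bases before the start and in Gad2 33 bases before it. The TATA box TATAAA, searched on the gene's strand, was present in 7.59% of windows. Vip alone among the markers held it, with first bases 157, 147 and 30 bases before the start. Neither Pvalb window held any of these elements. The elements were chosen after the expression values had been seen, and a match describes the letters of the window only.

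Levels are in FPKM, sequenced fragments scaled to transcript length and library depth, which allows levels of different genes to be compared. Sst had the highest mean over the 10 libraries, 90.0 FPKM, followed by Npy at 62.5, Pvalb at 51.2, Gad1 at 42.7 and Cnr1 at 29.8. Vip at 13.5, Slc32a1 at 12.8 and Gad2 at 9.74 followed, then Lhx6 at 3.55 and Reln at 0.219 FPKM. Most steps of this order held within libraries: Sst exceeded Npy, Npy exceeded Pvalb, and Pvalb exceeded Gad1 in 9 of 10 libraries each. Vip exceeded Slc32a1 in 6 of 10, so these neighbours could not be ordered beyond their spread. Sst stood above 91.9% of the tested genes, Gad1 above 82.6% and Lhx6 above 23.6%. The pyramidal cell markers Slc17a7 and Camk2a averaged 716 and 608 FPKM in the same libraries.

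**Figure D1:**
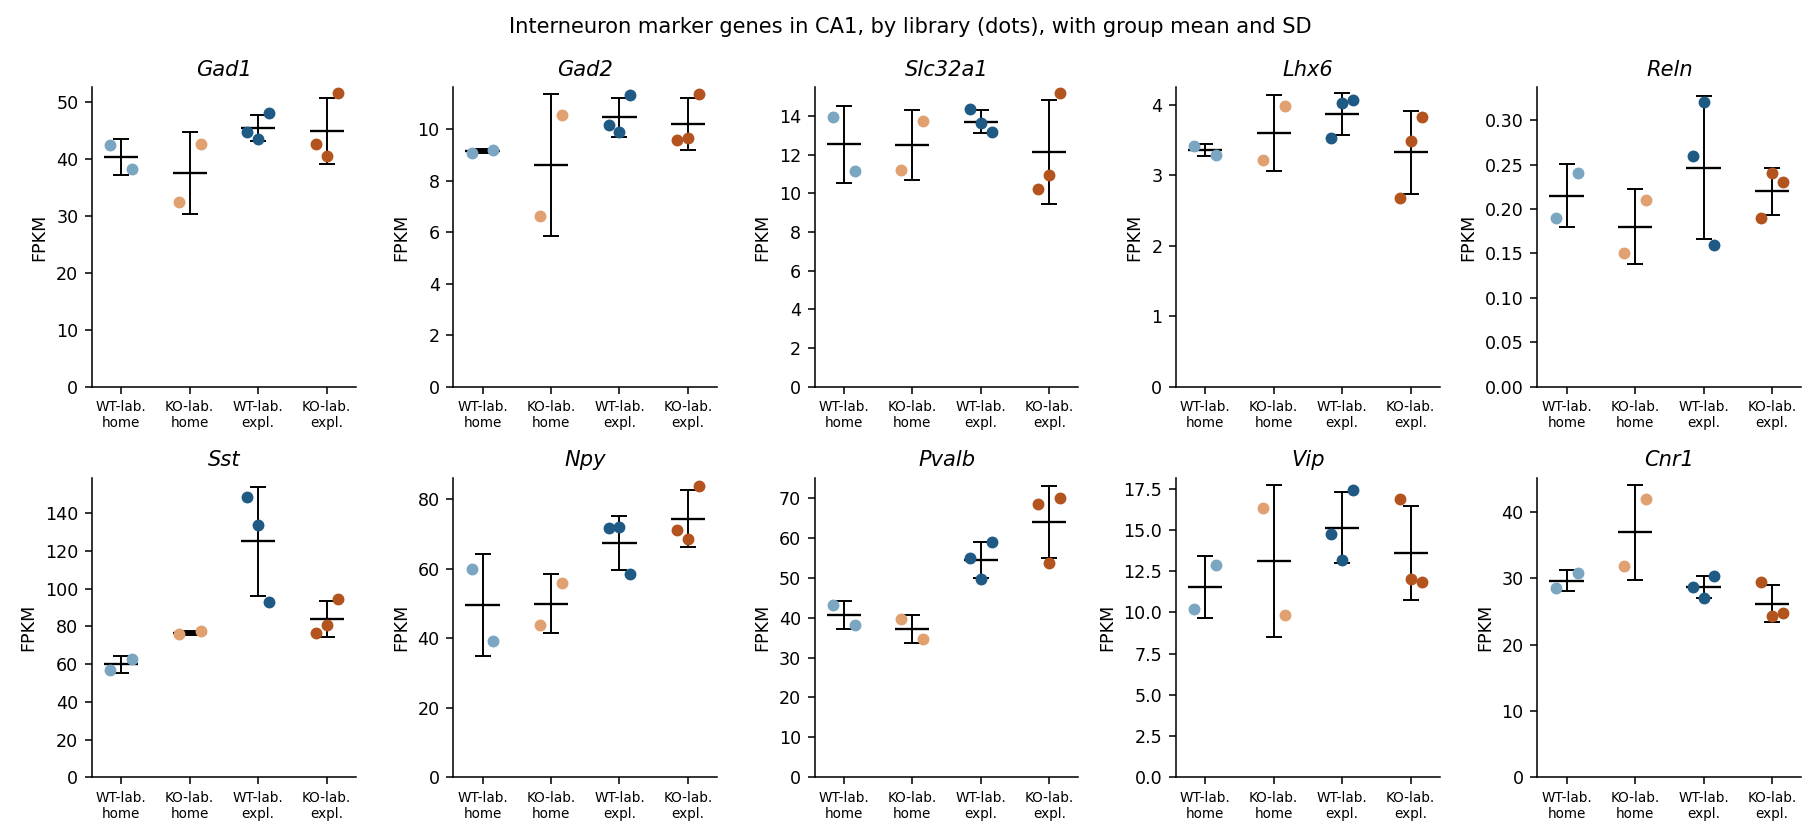
Each panel shows 1 marker gene, with FPKM on the vertical axis from 0, a dot for each library, a line for the mean and a bar for the SD of each group of labelled genotype and environment (n = 2, 2, 3 and 3). Sst was highest in WT-labelled exploration libraries 1 and 2, at 148.38 and 133.93 FPKM, and Pvalb and Npy were higher in all 3 KO-labelled exploration libraries than in both KO-labelled home cage libraries.

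Neil3, read as a check of the labels, went against them, and the cause was not tested. Its values were 0, 0, 0, 0 and 0.05 FPKM over the 5 WT-labelled libraries, and 8.35 to 15.22 FPKM over the 5 KO-labelled ones (exact two-sided permutation p = 0.00794, the smallest that 252 splits can give), so each direction below is that of the libraries as labelled. Home cage and exploration libraries were deposited as separate blocks of values, so environment and block cannot be told apart. Estimated depth was alike, 18700000 to 19900000 fragments per library. Of 13 CA1 pyramidal markers, 4 were higher and 6 lower after exploration in the KO-labelled mice at an adjusted p under 0.05 (limma). Of all tested genes 12.0% were higher and 16.6% lower there. The pyramidal marker Wfs1 ran from 64.88 to 238.69 FPKM over the libraries. Summed FPKM of the 13, in which such shifts can cancel, was 2618 to 2806 in all libraries. Sums of other cell types varied more. Those of 10 oligodendrocyte markers were 158 and 184 FPKM in the WT-labelled and 216 and 258 in the KO-labelled home cage libraries. After exploration they were 223 to 402 and 256 to 298, and 10 astrocyte markers ran from 178 to 314. In bulk tissue, fewer cells of a type and less RNA per cell cannot be told apart.

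Environment was compared first. In the WT-labelled mice, 1 of the 9 tested markers, Sst, was called at an adjusted p under 0.05, where 6.31% of all tested genes were called, 2.02% as higher. In the KO-labelled mice 3 of 9 were called, Pvalb and Npy higher and Cnr1 lower after exploration, against 28.6% of all tested genes, 12.0% higher and 16.6% lower. Averaged over the labelled genotypes 4 of 9 were called, Sst, Pvalb and Npy higher and Cnr1 lower, against 31.9% of all tested genes, 12.6% higher and 19.2% lower. The share of markers called in the KO-labelled mice was thus near that of all genes. Much of the KO-labelled comparison rested on KO-labelled home cage library 2. Without it 4.27% of all tested genes and 2 of 9 markers, Pvalb and Gad2, both higher, were called in the KO-labelled mice, and 16.2% of all tested genes and 5 of 9 markers, Sst, Pvalb, Npy, Gad1 and Gad2, all higher, were called on average. The median log2 difference of the 9 markers was 0.17, 0.12 and 0.21 in these comparisons, and that of all tested genes was -0.02, -0.04 and -0.03. In the WT-labelled mice it was 0.54 for oligodendrocyte, 0.46 for microglia and 0.34 for astrocyte markers, with 5, 4 and 4 of 10 called higher. It was 0.0 for CA1 pyramidal markers there. In the KO-labelled mice those of the 3 glial lists were 0.04, 0.08 and -0.06.

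Sst (gene ID 20604, chr16:23889573-23891342, minus strand), the peptide of dendrite-targeting interneurons, stood at 56.78 and 62.98 FPKM in the WT-labelled home cage libraries, and the WT-labelled exploration libraries held 148.38, 133.93 and 92.84 FPKM. All 3 exploration libraries lay above both home cage libraries. The group means were 59.9 ± 4.38 (SD, n = 2) and 125 ± 28.8 FPKM (SD, n = 3), a ratio of 2.09, and the log2 difference was 1.02 (SE 0.16, 95% interval 0.67 to 1.37, adjusted p 0.00435). KO-labelled home cage libraries held Sst at 75.73 and 77.36 FPKM, and KO-labelled exploration libraries at 76.38, 80.86 and 94.41 FPKM. Here the groups overlapped, and the log2 difference was 0.12 (SE 0.16, 95% interval -0.23 to 0.47, adjusted p 0.583).

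The test of the difference between these Sst responses gave a log2 value of -0.90 (SE 0.23, 95% interval -1.39 to -0.40), with an unadjusted p of 0.00195 and an adjusted p of 0.0774, which missed the threshold. That miss depended in part on WT-labelled exploration library 3, the lowest of its group. Without that library the value was -1.10 (adjusted p 0.025). The rise of Sst in the WT-labelled mice remained past the threshold without each of the 10 libraries in turn, with log2 differences of 0.89 to 1.22 and adjusted p of 0.000247 to 0.0481.

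The WT-labelled exploration libraries with the most Sst also held more choroid plexus RNA. The 8 choroid plexus markers summed to 134 and 110 FPKM in WT-labelled exploration libraries 1 and 2 and to 17.4 in library 3. They summed to 240 FPKM in WT-labelled home cage library 1, which had the lowest Sst level of all, and to 18.8 in home cage library 2. Of these 8 markers Kcnj13, Aqp1, Folr1 and Clic6 were at 0 in some library. The 5 blood markers summed to 228 to 308 FPKM in the WT-labelled exploration libraries and to 94.8 and 154 in the WT-labelled home cage libraries. The 10 microglia markers summed to 72.5 and 65.5 FPKM in the WT-labelled home cage libraries and to 89.1, 102 and 85.1 after exploration, and the 10 astrocyte markers to 178 and 194 against 272, 278 and 214, neither with overlap. The part of these in the Sst difference was not tested.

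Pvalb (gene ID 19293, chr15:78191112-78206400, minus strand), which encodes the calcium-binding protein of fast-spiking basket and axo-axonic cells, showed a different distribution over the groups. The KO-labelled home cage libraries had 39.69 and 34.69 FPKM, and the KO-labelled exploration libraries 68.51, 53.63 and 70 FPKM. The groups did not overlap, and the means of 37.2 ± 3.54 (SD, n = 2) and 64.0 ± 9.05 FPKM (SD, n = 3) gave a ratio of 1.72. The log2 difference was 0.76 (SE 0.12, 95% interval 0.50 to 1.02, adjusted p 0.00211), and Pvalb remained called under every alternative analysis run and without each library in turn. Summed markers of neighbouring fields were also higher after exploration in the KO-labelled mice. Those of CA2 and CA3 summed to 120 and 123 FPKM in the home cage and to 183 to 292 after exploration. Dentate granule markers summed to 11.2 and 13.1 against 19.8 to 31.2. In the WT-labelled mice the CA2 and CA3 sums were 256 and 128 FPKM in the home cage and 192 to 210 after exploration. The dentate sums were 31.1 and 24.1 against 20.5 to 25.6. The part of these markers in the KO-labelled differences was not tested.

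For the WT-labelled mice Pvalb was at 43.28 and 38.26 FPKM in the home cage and at 54.91, 49.76 and 58.87 FPKM after exploration. These groups did not overlap either, but the log2 difference of 0.41 (SE 0.12, 95% interval 0.15 to 0.67) had an adjusted p of 0.0656. It passed the threshold when only the WT-labelled groups were fitted (adjusted p 0.0182) and without KO-labelled exploration library 2 (adjusted p 0.0388). The difference between the labelled genotypes in the Pvalb response was 0.35 on the log2 scale (SE 0.17, 95% interval -0.02 to 0.72, adjusted p 0.336). Averaged over the labelled genotypes, Pvalb had the smallest adjusted p of the markers, 0.000855, with a log2 difference of 0.59 (SE 0.08).

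Npy (gene ID 109648, chr6:49822710-49829507, plus strand), a peptide of several interneuron types, was at 43.94 and 55.90 FPKM in the KO-labelled home cage libraries and at 71.07, 68.42 and 83.70 FPKM after exploration. The groups did not overlap, and the ratio of means was 1.49. The log2 difference was 0.57 (SE 0.17, 95% interval 0.20 to 0.94, adjusted p 0.0272). This call was lost without KO-labelled home cage library 1 (0.40, adjusted p 0.165), home cage library 2 (0.74, adjusted p 0.0692) or exploration library 3 (0.48, adjusted p 0.0674), with no filter on low values (adjusted p 0.0652) and under quantile normalization (adjusted p 0.0702).

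WT-labelled mice had Npy at 60.03 and 39.12 FPKM in the home cage and at 71.86, 72.12 and 58.52 FPKM after exploration. The higher home cage library lay above the lowest exploration library. The log2 difference was 0.46 (SE 0.17, adjusted p 0.126), close in size to that in the KO-labelled mice, and the difference between the responses was 0.11 (95% interval -0.41 to 0.63, adjusted p 0.873). It passed the threshold without WT-labelled home cage library 1, which held the highest choroid plexus sum (0.77, adjusted p 0.0441). Averaged over the labelled genotypes the difference was 0.52 (SE 0.12, adjusted p 0.00806) and was called under all alternatives run.

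Cnr1 (gene ID 12801, chr4:33923171-33948831, plus strand), the cannabinoid receptor gene, was the only marker called lower after exploration. KO-labelled mice had 31.86 and 42.0 FPKM in the home cage and 29.42, 24.38 and 24.72 FPKM after exploration. The exploration libraries all lay below both home cage libraries, and the log2 difference was -0.47 (SE 0.12, 95% interval -0.73 to -0.22, adjusted p 0.0134). KO-labelled home cage library 2 had by far the highest Cnr1 of the 10 libraries. Without it the difference was -0.28 (adjusted p 0.192).

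WT-labelled mice had Cnr1 at 28.52 and 30.75 FPKM in the home cage and at 28.67, 26.99 and 30.30 FPKM after exploration, with overlapping groups and a log2 difference of -0.05 (SE 0.12, 95% interval -0.30 to 0.21, adjusted p 0.853). The difference between the Cnr1 responses was -0.43 (95% interval -0.79 to -0.06, unadjusted p 0.0251, adjusted p 0.227) and was not called. The averaged difference of -0.26 (adjusted p 0.0327) lost its call in 9 of 17 alternatives, among them without WT-labelled home cage library 1 (adjusted p 0.054) or 2 (adjusted p 0.118), KO-labelled home cage library 2 (-0.16, adjusted p 0.161), WT-labelled exploration library 1 (adjusted p 0.0612) or 2 (adjusted p 0.0686), and KO-labelled exploration library 2 (adjusted p 0.0676) or 3 (adjusted p 0.0549). The other losses were with no filter (adjusted p 0.0618) and with size factors (adjusted p 0.0511).

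**Figure D2:**
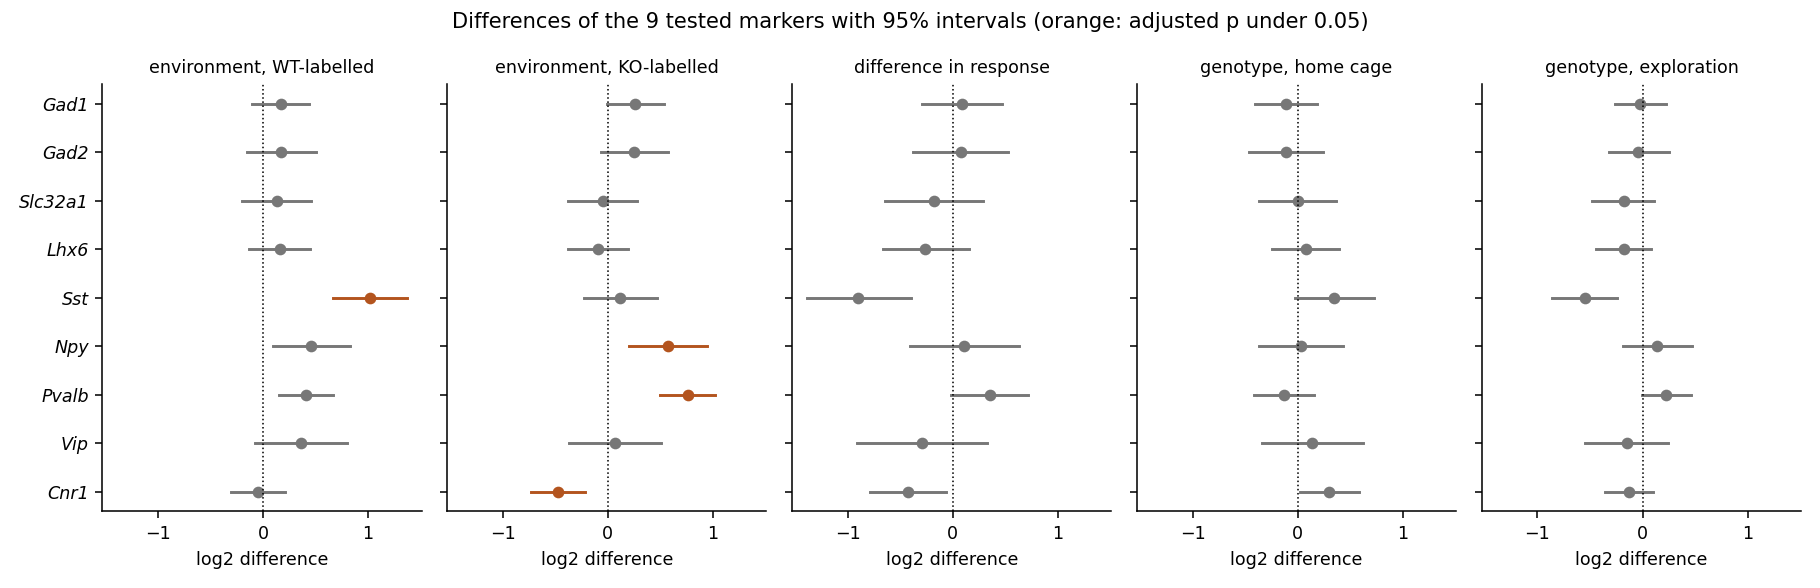
Each panel is 1 comparison, with the log2 difference of log2(FPKM + 1) on the horizontal axis, the 9 tested markers on the vertical axis, and points with 95% intervals (orange for an adjusted p under 0.05). Sst stood apart in the WT-labelled mice at 1.02, while Pvalb at 0.76, Npy at 0.57 and Cnr1 at -0.47 were called in the KO-labelled mice and no marker was called between the labelled genotypes.

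The genes for GABA synthesis and vesicular loading did not pass the test in either environment comparison. Gad1 (gene ID 14415, chr2:70561303-70602014, plus strand) was at 42.59 and 38.20 FPKM in the WT-labelled home cage libraries, 32.43 and 42.65 in the KO-labelled ones, 44.79, 43.58 and 48.08 in the WT-labelled exploration libraries, and 42.76, 40.63 and 51.60 in the KO-labelled ones. The WT-labelled groups did not overlap and the KO-labelled groups did. The log2 differences between environments were 0.17 (adjusted p 0.449) and 0.26 (adjusted p 0.131). Averaged, the difference was 0.21 (SE 0.09, adjusted p 0.0778), and it was called without KO-labelled home cage library 2 (0.31, adjusted p 0.0307) and with size factors (0.26, adjusted p 0.0433).

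Gad2 (gene ID 14417, chr2:22621015-22693877, plus strand), which encodes the form of the enzyme found mainly at terminals, followed Gad1. Its values were 9.09 and 9.19 FPKM in the WT-labelled home cage libraries, 6.64 and 10.54 in the KO-labelled ones, 10.18, 9.88 and 11.32 in the WT-labelled exploration libraries, and 9.57, 9.67 and 11.35 in the KO-labelled ones. Again only the WT-labelled groups were apart, with log2 differences of 0.17 and 0.25 (adjusted p 0.517 and 0.221). With KO-labelled home cage library 2 left out, the KO-labelled and the averaged differences were called (0.55, adjusted p 0.0404, and 0.36, adjusted p 0.015). The ratio of Gad1 to Gad2 FPKM lay between 4.05 and 4.88 in all 10 libraries.

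Slc32a1 (gene ID 22348, chr2:158607260-158615747, plus strand) ranged from 10.25 to 15.20 FPKM, and those extremes were both KO-labelled exploration libraries. Its log2 differences between environments were 0.13 and -0.05 (adjusted p 0.662 and 0.83). Lhx6 (gene ID 16874, chr2:36081950-36105992, minus strand), the lineage transcription factor, was at 3.41 and 3.29 FPKM in the WT-labelled home cage libraries and at 3.53, 4.03 and 4.06 after exploration. These groups did not overlap, yet the log2 difference was 0.16 (SE 0.13, adjusted p 0.497). KO-labelled libraries had Lhx6 values that ran from 2.67 to 3.98 FPKM, with a difference of -0.09 (adjusted p 0.619).

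Vip (gene ID 22353, chr10:5639193-5647617, plus strand), the marker of interneurons that contact other interneurons, was at 10.18 and 12.85 FPKM in the WT-labelled home cage libraries and at 14.77, 13.15 and 17.42 after exploration. The groups did not overlap, but the spread was wide and the log2 difference of 0.36 (SE 0.20, 95% interval -0.08 to 0.80) had an adjusted p of 0.309. Among KO-labelled mice the home cage libraries, at 16.34 and 9.83 FPKM, spanned nearly the whole range of the exploration libraries, at 16.89, 12.03 and 11.85. The averaged difference was 0.22 (adjusted p 0.255) and was called without KO-labelled home cage library 1 (0.39, adjusted p 0.0409).

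Reln (gene ID 19699, chr5:21884454-22344705, minus strand), which encodes the secreted protein reelin, was at 0.15 to 0.32 FPKM in every library, which corresponds to an estimated 32 to 71 fragments with a median of 47. The counting error at that median is 14.6%. The lowest value, 0.15 FPKM, was in KO-labelled home cage library 1 and the highest, 0.32, in WT-labelled exploration library 2. The ranges of all 4 groups overlapped, and no test was made.

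Non-overlap of small groups was common across the genome and is given only beside its background. In the WT-labelled mice, Gad1, Gad2, Sst, Pvalb, Vip and Lhx6 were higher in all exploration libraries than in both home cage libraries, which is 6 of 9 tested markers, and none was lower. Of all tested genes 19.7% were higher and 28.1% lower without overlap. In the KO-labelled mice Pvalb and Npy were higher and Cnr1 lower without overlap, against 22.2% higher and 29.9% lower among all tested genes.

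Between the labelled genotypes no marker was called in either environment. In the home cage 0 of 9 were called (limma, 1 at an unadjusted p under 0.05), where 3.57% of all tested genes were called. After exploration 0 of 9 were called (limma, 1 at an unadjusted p under 0.05), against 0.597%, and averaged over environments 0 of 9 (limma, 0 at an unadjusted p under 0.05), against 2.13%. The difference in response to exploration was called for 0 of 9 (limma, 2 at an unadjusted p under 0.05, Sst and Cnr1), against 0.875%.

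Sst came closest after exploration, where WT-labelled libraries stood at 148.38, 133.93 and 92.84 FPKM and KO-labelled ones at 76.38, 80.86 and 94.41. The highest KO-labelled library lay just above the lowest WT-labelled one. The log2 difference, KO-labelled minus WT-labelled, was -0.55 (SE 0.14, 95% interval -0.86 to -0.24, adjusted p 0.103), and without WT-labelled exploration library 3 it was -0.75 (adjusted p 0.0161). In the home cage both KO-labelled libraries were above both WT-labelled ones, with a log2 difference of 0.35 (SE 0.18, 95% interval -0.03 to 0.73, adjusted p 0.317). Sst and Cnr1 were the 2 markers that were higher without overlap in the KO-labelled home cage libraries, where 21.0% of all tested genes were. After exploration 0 of 9 markers had groups that did not overlap, against 24.9% of all tested genes.

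Cnr1 was higher by 0.30 on the log2 scale in the KO-labelled home cage libraries (95% interval 0.02 to 0.58, unadjusted p 0.0403, adjusted p 0.244). For Pvalb the intervals ran from -0.42 to 0.16 in the home cage and from -0.01 to 0.46 after exploration, and for Npy from -0.37 to 0.43 and from -0.19 to 0.47. For Gad1 the interval averaged over environments, -0.26 to 0.12, bounded the difference between labelled genotypes most closely among the GABA synthesis and loading genes.

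The peptide and calcium-binding markers were also read against the GABA genes of the same library, as the ratio of FPKM to the geometric mean of Gad1, Gad2 and Slc32a1, which itself ran from 13.4 to 20.7 FPKM. For Sst this ratio was 3.24 and 4.0 in the WT-labelled home cage libraries and 7.94, 7.43 and 4.82 in the WT-labelled exploration libraries. For the KO-labelled mice it was 5.65 and 4.21 for home cage libraries and 4.74, 4.97 and 4.56 after exploration. The separation of the WT-labelled groups and the overlap of the KO-labelled groups in Sst level were thus also present relative to the GABA genes.

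The ratio for Pvalb was 2.96 and 1.89 in the KO-labelled home cage libraries and 4.25, 3.30 and 3.38 after exploration, and that for Npy 3.28 and 3.05 against 4.41, 4.21 and 4.04. Both were without overlap. For Cnr1 it was 2.38 and 2.29 in the KO-labelled home cage libraries, above the other 8 libraries, which ran from 1.19 to 1.95. The 2.38 was in library 1, where the geometric mean of the GABA genes was the lowest of all, 13.4 FPKM. Cnr1 itself was at 31.86 FPKM there, against 30.75 in WT-labelled home cage library 2. Sst exceeded Pvalb by 2.70 and 2.69 times in WT-labelled exploration libraries 1 and 2, and by 1.11 to 2.23 times in the other libraries.

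**Figure D3:**
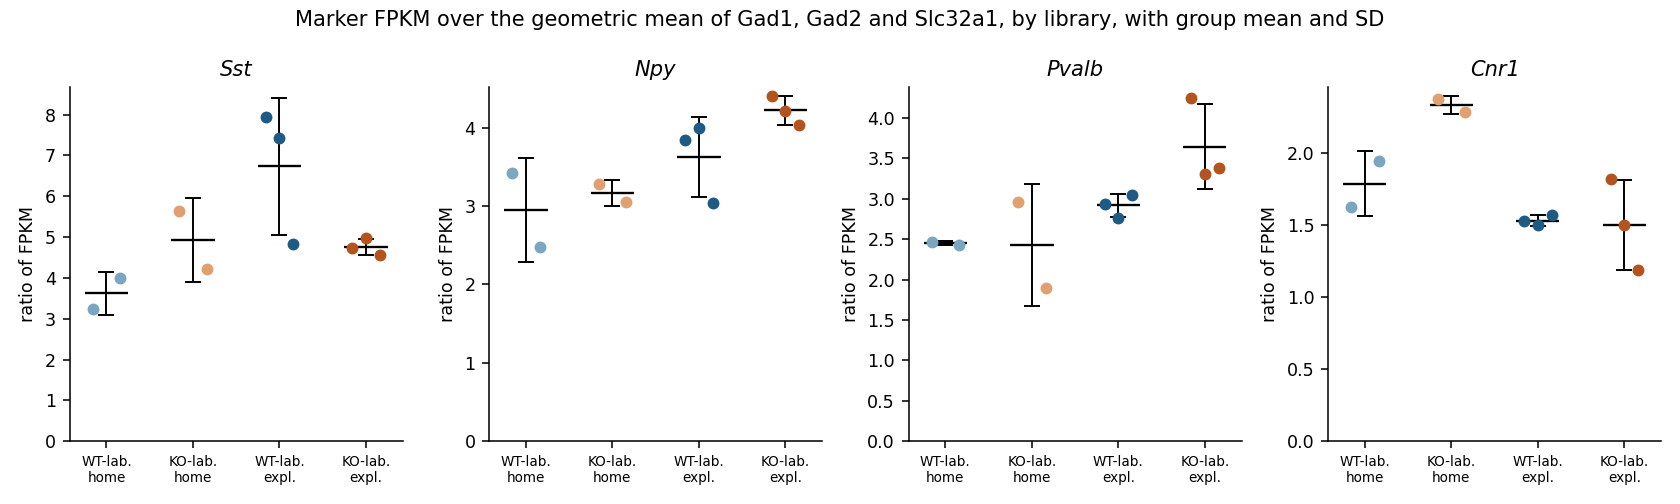
The vertical axes show FPKM of Sst, Npy, Pvalb and Cnr1 divided by the geometric mean of Gad1, Gad2 and Slc32a1 FPKM in the same library, with dots for libraries and lines and bars for the mean and SD of each group. Sst reached 7.94 and 7.43 in WT-labelled exploration libraries 1 and 2, and Cnr1 was highest in the KO-labelled home cage libraries at 2.38 and 2.29.

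Several markers were highest in the same library of their group. How often each library was highest over all tested genes was not counted. KO-labelled home cage library 2 exceeded library 1 in 8 of 10 markers, all but Pvalb and Vip. KO-labelled exploration library 3 was the highest of its group in 7 of 10, whereas WT-labelled exploration library 3 was the highest in 6 of 10 and the lowest in Slc32a1, Sst, Npy and Reln. The coefficient of variation within groups was 11.3% for Gad1, 11.9% for Cnr1, 12.1% for Pvalb, 15.2% for Npy, 19.6% for Sst and 21.4% for Vip, against a median of 8.46% for tested genes in the same range of levels.

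**Figure D4:**
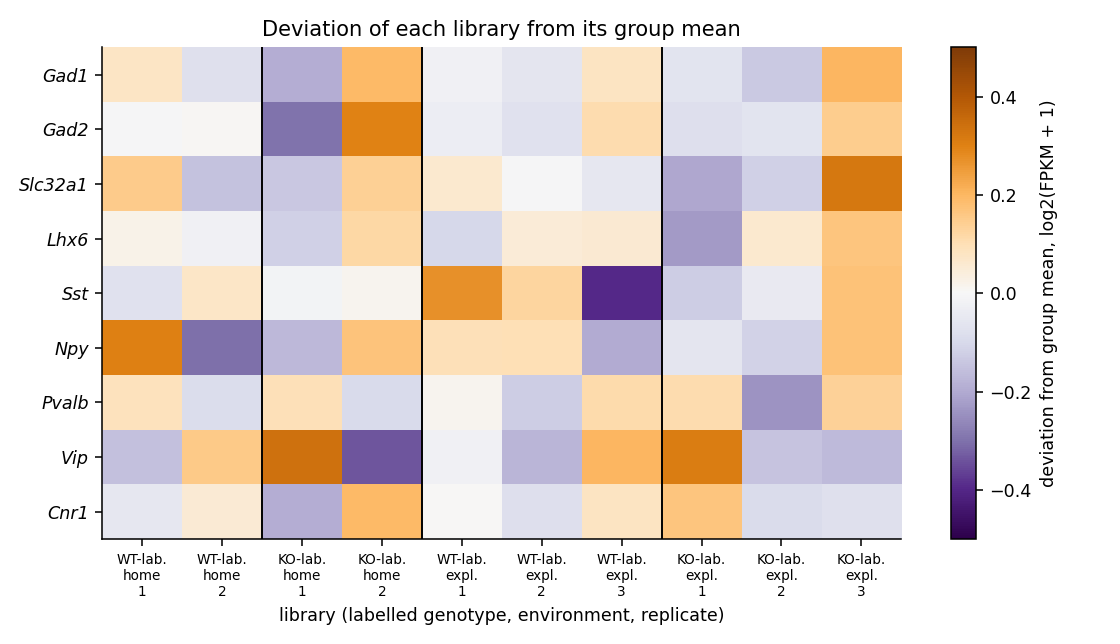
The colour of each cell gives the deviation of a library from its group mean in log2(FPKM + 1), with the 9 tested markers in rows and the 10 libraries in columns. Sst in WT-labelled exploration library 3 (92.84 FPKM, against a group mean of 125) is among the lowest cells, and KO-labelled home cage library 2 is above its group mean in all markers but Pvalb and Vip.

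Likeness of pattern was measured by Pearson's r of log2(FPKM + 1) over the 10 libraries, with up to 3 of the most alike of all tested genes listed per marker. Groups and libraries are shared by all these values, and they are descriptions. The genes most like Pvalb were Rgs10 (0.979), Pebp1 (0.976) and Atp5g3 (0.971). Those most like Sst were Rasgrp2 (0.950), Gpr37 (0.941) and Pex11a (0.920). Npy was most like Fh1 (0.962), Etfa (0.949) and Plrg1 (0.938), and Cnr1 most like Adgra1 (0.955), Slit2 (0.950) and Pcdh19 (0.948).

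Among the GABA genes, Gad1 and Gad2 had each other among their 3 nearest genes (0.933), together with Cog4 (0.966 with Gad1 and 0.937 with Gad2), and Fam124a (0.943) and Emcn (0.954) completed their lists. Slc32a1 was most like Ubqln2 (0.941) and Hsp90ab1 (0.939). Vip was most like Stub1 (0.963), Srrd (0.936) and Plekhj1 (0.927), and Lhx6 most like Pcdhga3 (0.921), Eef1a2 (0.909) and Dhx38 (0.908). Gad1 and Gad2 were the only markers to appear in the list of another marker.

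Receptors of the peptides Sst, Npy and Vip and of the Vip-related peptide PACAP were read next. Of 9 tested of 11 listed neuropeptide receptor genes, 5 fell and 1 rose after exploration in the KO-labelled mice, with a median log2 difference of -0.68, and 6 fell and 0 rose on average over the labelled genotypes, with a median of -0.40. In the WT-labelled mice 0 were called (limma, 2 at an unadjusted p under 0.05), with a median of -0.18. Among all tested genes 12.0% were called higher and 16.6% lower in the KO-labelled mice, and 12.6% higher and 19.2% lower on average. Leaving out KO-labelled home cage library 2, 1 of the 9 receptors, Npy1r, was called there, with a median of -0.58, and 2, Npy1r and Sstr4, were called on average.

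Sstr4, a somatostatin receptor, was at 23.50 and 29.58 FPKM in the KO-labelled home cage libraries and at 10.82, 16.67 and 16.43 FPKM after exploration, a log2 difference of -0.83 (adjusted p 0.00655, and -0.67 with adjusted p 0.107 without KO-labelled home cage library 2). The WT-labelled libraries had 18.73 and 22.83 FPKM at home cage baseline and 15.75, 17.96 and 13.80 FPKM after exploration, without overlap but with a difference of -0.37 (adjusted p 0.233) that was not called. Npy1r, the receptor of Npy on many principal cells, was at 13.79 and 13.77 FPKM in the KO-labelled home cage libraries and at 8.85, 8.25 and 7.57 FPKM after exploration (-0.68, adjusted p 0.00164). The fall of Npy1r in the KO-labelled mice and the average falls of Sstr4 and Npy1r, -0.60 and -0.45, were called under all alternatives run.

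Sstr3, a somatostatin receptor of the neuronal primary cilium, had a log2 difference of -1.11 in the KO-labelled mice, Adcyap1r1, the PACAP receptor, -0.87, and Sstr1 -0.84. Without KO-labelled home cage library 2, in which all 3 were highest, the values were -0.97 (adjusted p 0.0512), -0.63 (adjusted p 0.0502) and -0.58 (adjusted p 0.10). Npy2r, a presynaptic Npy receptor, was the 1 that rose, by 0.42 (adjusted p 0.0458), from 13.25 and 11.08 FPKM to 17.81, 17 and 14.85. It was lower in the KO-labelled than in the WT-labelled home cage libraries, at 19.41 and 20.60 FPKM (-0.68, adjusted p 0.0377). Without KO-labelled home cage library 2 these were 0.30 (adjusted p 0.337) and -0.56 (adjusted p 0.215), and both calls were lost in further alternatives.

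**Figure D5:**
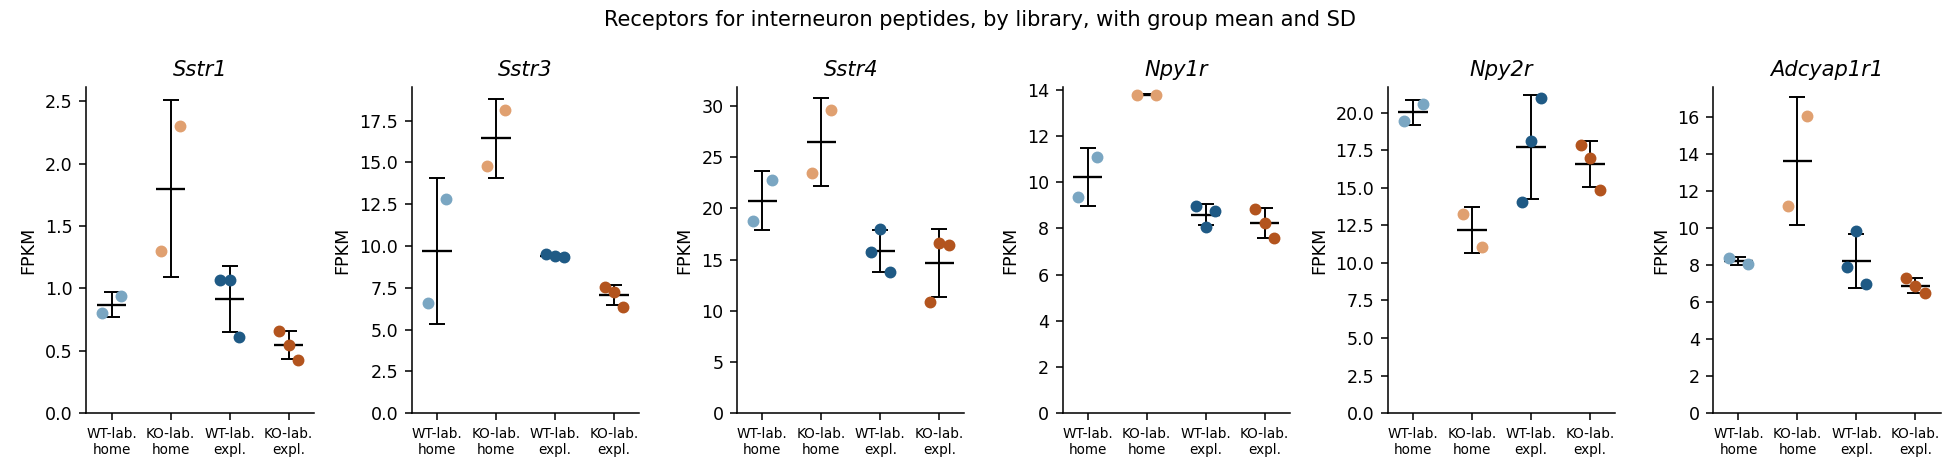
FPKM of 6 receptor genes is shown from 0 on the vertical axes, with a dot per library and lines and bars for the mean and SD of each group. Sstr1, Sstr3, Sstr4, Npy1r and Adcyap1r1 were highest in the KO-labelled home cage libraries and Npy2r was lowest there, at 13.25 and 11.08 FPKM.

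The remaining genes of the GABA pathway were called in few cases. Of 9 tested of 10 genes for synthesis, transport and breakdown of GABA, only Slc6a11, a GABA transporter known mainly from astrocytes, was called. It was at 11.74 and 12.57 FPKM in the WT-labelled and 16.93 and 19.16 in the KO-labelled home cage libraries, and at 14.81, 13.50 and 12.81 and at 10.41, 10.61 and 12.86 FPKM after exploration. In the home cage it was higher in the KO-labelled libraries (0.53, adjusted p 0.0328), where 3.57% of all tested genes were called. That call was lost in 7 of 18 alternatives. It fell in the KO-labelled mice (-0.63, adjusted p 0.00249) under all alternatives run, in a comparison that called 28.6% of all tested genes. The 10 astrocyte markers summed to 178 and 194 FPKM in the WT-labelled and 270 and 314 in the KO-labelled home cage libraries and to 259 to 302 in the KO-labelled exploration libraries, and their part in it was not tested. Of the GABA-B receptor genes, Gabbr2 fell in the KO-labelled mice by 0.59 on the log2 scale (adjusted p 0.0109), and by 0.41 (adjusted p 0.163) without KO-labelled home cage library 2, and Gabbr1 was not called.

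Among the lineage transcription factors, calls were made for a pair of genes. Of 13 tested of 18, Nr2f2 and Satb1 were called between the labelled genotypes in the home cage and between environments in the KO-labelled mice, and 0 were called in the WT-labelled mice (limma, 0 at an unadjusted p under 0.05). Of all tested genes 3.57%, 28.6% and 6.31% were called in these comparisons. Nr2f2, a nuclear receptor of interneurons from the caudal ganglionic eminence, was at 0.92 and 1.92 FPKM in the WT-labelled and 5.43 and 7.76 in the KO-labelled home cage libraries, and at 1.24 to 2.63 FPKM after exploration. It fell in the KO-labelled mice by 1.5 on the log2 scale (adjusted p 0.00239) and was called there under all alternatives run. Satb1, needed for the maturation of Sst and Pvalb cells, had the opposite order, with 7.68 and 4.64 FPKM in the WT-labelled and 2.15 and 1.96 in the KO-labelled home cage libraries and a rise of 0.95 in the KO-labelled mice, which was 0.90 (adjusted p 0.101) without KO-labelled home cage library 2. In the home cage comparison of labelled genotypes, Vip was at 0.14, Htr3a at 0.11, Adarb2 at 0.04 and Sncg at -0.05. Lhx6 was at 0.08 and Sst at 0.35 there, and none of these 6 genes was called. Of 23 tested other subtype markers, 1, Kit, was called in it. The home cage differences of Nr2f2 and Satb1 between the labelled genotypes were 1.66 and -1.20. Without WT-labelled home cage library 1 they were 1.36 (adjusted p 0.156) and -0.89 (adjusted p 0.215), and without KO-labelled home cage library 2 they were 1.44 (adjusted p 0.115) and -1.15 (adjusted p 0.149). That of Satb1 was -1.24 (adjusted p 0.0521) without KO-labelled home cage library 1.

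Of 23 tested of 30 other subtype markers, 3 rose and 6 fell in the KO-labelled mice after exploration and 0 were called in the WT-labelled mice (limma, 2 at an unadjusted p under 0.05). Of all tested genes 12.0% rose and 16.6% fell in the KO-labelled mice, and 6.31% were called in the WT-labelled mice. Nos1, the neuronal nitric oxide synthase of neurogliaform, ivy and projecting interneurons, was at 8.73 and 16.45 FPKM in the KO-labelled home cage libraries and at 4.09, 4.39 and 4.38 after exploration, a fall of 1.30 on the log2 scale that held under all alternatives run. Kit fell by 1.99, from 34.19 and 52.61 to 16.38, 8.15 and 7.22 FPKM, and Calb1, which CA1 pyramidal cells also express, by 0.67. The WT-labelled home cage libraries had Kit at 7.25 and 14.56 FPKM. It was thus higher in the KO-labelled home cage libraries (1.94, adjusted p 0.0221), where 3.57% of all tested genes were called. That call was lost in 4 of 18 alternatives. The other falls after exploration in the KO-labelled mice were the potassium channel genes Kcnc2 (-0.63, adjusted p 0.00419) and Kcnc1 (-0.31, adjusted p 0.0327), and Adarb2 (-0.45, adjusted p 0.0312). Pvalb rose in that comparison, by 0.76. Averaged over the labelled genotypes Kcnc2 was at -0.46 (adjusted p 0.003). Lamp5 rose by 1.17 in the KO-labelled mice, from 23.41 and 15.54 to 35.62, 46.24 and 51.93 FPKM. Kit at 52.61 FPKM stood above Gad1 at 42.65 in KO-labelled home cage library 2. Lamp5 at 51.93 stood near Gad1 at 51.60 in KO-labelled exploration library 3. Which cells held the Kit and Lamp5 RNA was not tested. Without KO-labelled home cage library 2 Kit, Calb1 and Lamp5 were at -1.69 (adjusted p 0.054), -0.47 (adjusted p 0.183) and 0.89 (adjusted p 0.107), and Nos1 was the 1 gene of the list still called. Pnoc and Cck were the other rises, at 0.56 and 0.42, and without that library they were at 0.61 (adjusted p 0.123) and 0.20 (adjusted p 0.431). Cck is abundant in pyramidal cells as well, with a mean of 1740 FPKM.

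Around Cnr1, the endocannabinoid list had 11 genes, all tested, of which 3 rose and 1 fell in the KO-labelled mice, and 0 were called in the WT-labelled mice (limma, 2 at an unadjusted p under 0.05). The shares of all tested genes called were 28.6% and 6.31%. The gene that fell was Cnr1. Mgll and Abhd6, which encode lipases that break down the ligand 2-arachidonoylglycerol, rose by 0.61 and 0.55. Mgll was at 28.93 and 25.06 FPKM in the KO-labelled home cage libraries and at 39.17, 44.90 and 40.57 after exploration, and Abhd6 at 37.40 and 35.02 and at 48.50, 54.21 and 57.52. Neither gene's groups overlapped, and both calls held under all alternatives run. Abhd12, another lipase gene, rose by 0.32 (adjusted p 0.0329), but lost this call in 9 of 18 alternatives, with 0.14 (adjusted p 0.345) without KO-labelled home cage library 2. Napepld, which encodes an enzyme of anandamide synthesis, was higher by 0.66 in the KO-labelled home cage libraries (adjusted p 0.0415), a call lost in 8 of 17 alternatives.

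Around Reln, 9 of 10 genes of the reelin pathway were tested. In the KO-labelled mice 2 rose and 2 fell, and 0 were called in the WT-labelled mice (limma, 1 at an unadjusted p under 0.05), against 28.6% and 6.31% of all tested genes called. Lrp8, a reelin receptor, fell by 0.55, from 5.84 and 7.87 to 4.42, 4.98 and 3.62 FPKM, and the kinase gene Fyn by 0.25. Rap1a, which encodes a small GTPase downstream, rose by 0.65, from 24.38 and 23.04 to 46.06, 36.28 and 32.24 FPKM, and the adaptor gene Crk by 0.24. Without KO-labelled home cage library 2 none of the 9 was called, with Lrp8 at -0.37 (adjusted p 0.238), Fyn at -0.23 (adjusted p 0.123), Rap1a at 0.61 (adjusted p 0.0558) and Crk at 0.23 (adjusted p 0.134).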

How the data were processed

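CA1 RNA of 10 mice was read as FPKM per gene, the values the authors deposited, in separate blocks for exploration (19156 genes) and home cage libraries (18257 genes), joined on gene ID. HISAT, StringTie, GATK, Bowtie2 and RSEM and the build GRCm38 (mm10) are named, per the submitters' processing notes, with no roles given. Whether strand was used, or the blocks were normalized together, is not given in the sources used here.

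Tests were run with limma 3.58.1 (R 4.3.3) on values of log2(FPKM + 1), with genes at 1 FPKM or more in at least 2 libraries, 1 mean per group, a variance trend, and Benjamini-Hochberg adjustment over all 11892 genes (6 residual and 5.71 prior degrees of freedom). This scale understates changes of low genes. The p-values weigh each difference against the spread between mice within groups. That spread was pooled over the groups and drawn toward a trend over all tested genes. Genes were called at an adjusted p under 0.05. The 7 comparisons were genotype label and environment, each alone and averaged, and the difference in response.

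Fragment numbers are estimates, made from how low FPKM values are spaced within each library. Members, gene lists and rules were chosen with earlier results of these data known. List genes were named where called, at most 3 in each direction per list and comparison, with their values in other comparisons. As an exception, all falls of the other subtype markers in the KO-labelled mice were named. The fit was tested on simulated data. Alternatives were another pseudocount, 2 filters, size factors, quantile normalization, 2 variance settings, only the groups compared, and leaving out each library. Coordinates are those of the GRCm38.p6 annotation. 1 gene among those most like a marker is not reported here.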

Additional observations from a re-analysis of the deposited data

Results flagged for a closer look

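Among the genes of the interneuron lists, 3 differed between the labelled genotypes in their response to exploration by the test of that difference itself. They were 1 of 13 tested lineage transcription factors, 1 of 23 other subtype markers and 1 of 9 genes of GABA synthesis, transport and breakdown. In the GABA-B receptor, neuropeptide receptor, reelin and endocannabinoid lists 0 were called. Of all tested genes 0.875% were called for this difference. The log2 values, KO-labelled response minus WT-labelled response, were -1.88 for Nr2f2, -2.33 for Kit and -0.79 for Slc6a11, each with an adjusted p of 0.0496 by limma, just inside the threshold. Nr2f2 is a transcription factor of interneurons from the caudal ganglionic eminence, Kit a receptor tyrosine kinase and Slc6a11 a GABA transporter. Nr2f2 lost this call in 9 of 17 alternatives (adjusted p 0.0107 to 0.223), Kit in 12 (0.0108 to 0.227) and Slc6a11 in 11 (0.0227 to 0.223). Each was highest in KO-labelled home cage library 2, with Kit at 52.61, Nr2f2 at 7.76 and Slc6a11 at 19.16 FPKM. None of the 9 tested markers was called for this difference, and groups of 2 and 3 mice were not searched for outlying samples.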

How the results depend on the processing

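The number of markers called kept within 1.5 times its value under all alternatives in the home cage comparison of labelled genotypes (0), its average (0), the KO-labelled environment comparison (2 to 3) and the averaged one (3 to 5). In the WT-labelled environment comparison it was 2 rather than 1 when only the groups compared were fitted, and 1 to 2 on leaving out each library, with 2 without KO-labelled exploration library 2 and 2 without library 1 of the WT-labelled home cage mice. Between labelled genotypes after exploration, and for the difference in response, it was 0 to 1, with 1, Sst, without WT-labelled exploration library 3. Abhd12 was -0.01 (adjusted p 0.894) under quantile normalization for the averaged environment difference, against 0.21 (adjusted p 0.0362), which reversed its sign. The cause was not tested. Groups of 2 and 3 mice, more than depth, limit these comparisons, except for Reln, which too few fragments covered. With a home cage library left out, the lone library left is assumed to vary like the other groups. No paired analysis was possible because the labels give no number that pairs mice.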
